A study of Mus musculus with 24 samples.

Results

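The cytochrome P450 genes of families 1 to 4, whose enzymes oxidise drugs, steroids and fatty acids, were taken from the array by name: the probes whose gene name is Cyp followed by a family digit from 1 to 4, a letter and digits. The rule gave 81 probes of 54 genes, out of 27962 gene names on the array. 30 of these genes had 1 probe, 21 had 2 and 3 had 3, and each gene was read from the probe with the highest mean intensity. The measurements came from the colon and the liver of 12 female C57BL/6 mice aged 12 weeks, 6 per diet, so that 24 samples formed 4 groups of 6. All mice were offspring of mothers fed HF-low, a diet high in fat and low in selenium and folate, from before mating through lactation. After weaning, HF-low-low offspring stayed on that diet, and HF-low-suf offspring received a high-fat diet with adequate selenium and folate. No group received a low-fat diet, and the colon was extracted whole. Each array compared 1 mouse's RNA, labelled with Cy3, with a pool of colon and liver RNA of all mice, labelled with Cy5. Every value below is the log2 ratio of Cy3 to Cy5 at a probe. A positive value means a brighter sample than pool, but the dyes were not swapped, so only differences between arrays at the same probe were read.

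Cytochrome P450 enzymes hold a haem iron on a cysteine and insert 1 oxygen atom from molecular oxygen into a lipophilic substrate, with electrons from NADPH that reach them through P450 oxidoreductase or cytochrome b5. Families 1 to 3 clear foreign compounds and steroids, and several forms of subfamilies Cyp2c and Cyp2j make epoxides of arachidonic acid. Family 4 enzymes hydroxylate fatty acids and eicosanoids at or near the end of the chain. The liver is the main site of most forms. Many genes lie in tandem clusters of close copies and are switched by nuclear receptors or by the Ah receptor, and in mice some forms are higher in one sex.

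The arrays measured both tissues as labelled. All 4 hepatocyte transcripts on the marker list were higher in liver, and 5 of 6 colon epithelium transcripts were higher in colon, the exception being Aqp8. Per array, Cy3 signals had a median of 3.78 to 7.20 times their local background, and 26.1% to 71.9% of probes were well above background, so arrays differed in how many dim probes they could read. All 5 adipose transcripts were higher in colon, where the mean of the list was 1.42 to 3.55, against -1.84 to -0.05 in 11 livers and 2.95 in HF-low-suf liver 1. These are tissue samples, so fewer cells of a type and less RNA per cell cannot be told apart. In liver 47 of the 54 genes (87.0%, against 36.9% of all 41174 probes) were well above background on at least 6 of the 12 arrays, and in colon 35 (64.8%, against 43.9%). 22 genes were read on all 24 arrays. Cyp1a1 and Cyp1b1, a pair of Ah receptor targets, were well above background on none at their main probes, so that only a bound from above exists there in both tissues.

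How far a probe separates close copies limits every value of these families. Of the 54 main probes, 8 carried the RefSeq transcript of another P450 gene in the array's own annotation. The probes printed here show the cases, namely probes that cannot be assigned to 1 gene, a place read by 2 probes, and a probe of a gene whose 3 probes disagree. The probe of Cyp2b13, on chromosome 7 (mm7, plus strand, between 22986378 and 22992433), lists Cyp2b9 and Cyp2b10 as well. Its capitals mark 21 bases whose codons match the haem-binding signature of P450 enzymes, a stretch that copies share. The probe of Cyp3a11 (chromosome 5, mm7, minus strand, between 144750340 and 144752207) lists Cyp3a41a and Cyp3a44. Both probes of Cyp2d9, on chromosome 15 (mm7, plus strand, from 82540764 to 82540823 for the other probe and from 82540797 to 82540856 for the main one), list Cyp2d22, and the 27 bases in capitals are common to both. The main probe of Cyp4a10 (chromosome 4, mm7, plus strand, 114901988 to 114902047) carries no RefSeq transcript in the annotation, so that it cannot be tied to 1 gene by it.
Cyp2b13 main probe: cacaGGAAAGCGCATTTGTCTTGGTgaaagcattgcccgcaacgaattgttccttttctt
Cyp3a11 main probe: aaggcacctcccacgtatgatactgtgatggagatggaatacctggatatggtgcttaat
Cyp2d9 main probe: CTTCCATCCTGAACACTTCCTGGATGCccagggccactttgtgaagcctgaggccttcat
Cyp2d9 other probe: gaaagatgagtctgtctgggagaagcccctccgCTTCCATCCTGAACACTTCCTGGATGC
Cyp4a10 main probe: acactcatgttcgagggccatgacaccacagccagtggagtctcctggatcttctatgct
The main probes of Cyp2a4 and Cyp2a5 are placed in the mm7 annotation at overlapping positions (chromosome 7, 23212199 to 23212258 and 23212221 to 23212279) and hold the same run of 28 bases, gtagacttgcagaggatatttcaaaggt. Their values are therefore not 2 independent measurements. The probes of Cyp3a41 and Cyp3a44 are likewise placed close to each other (from 144587472 and from 144587795 on chromosome 5).

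Of the 54 genes, 43 were higher in liver than in colon and 6 were higher in colon, in limma with each mouse as a block and an adjusted P under 0.05 over all probes. Among all probes 19.4% were higher in liver and 19.0% in colon, against 79.6% and 11.1% of these genes, so that more of them were higher in liver than on the array as a whole. The median difference over the 54 genes was 2.75 on the log2 scale, against 0.02 over all probes. For 41 genes the 12 livers and the 12 colons did not overlap (75.9%, against 12.5% of all probes). The difference passed 32-fold for 17 genes (31.5%, against 0.495%), of which 9 were well above background on fewer than 6 colons. This count depends on the probe, since 5 of the 17 (Cyp2b9, Cyp2b13, Cyp2c40, Cyp2j5 and Cyp3a44) fell under 32-fold at their other probe and 3 genes outside it (Cyp2c37, Cyp4a10 and Cyp4a12) passed it at another probe. Where fewer than 6 arrays of a tissue read a gene, the difference is given without a fold of the ratios, since the dim side is mostly background. The 43 include Cyp1a1 and Cyp1b1, whose main probes were dim on all 24 arrays and whose tissue difference was therefore not measured. They also include Cyp2g1, an olfactory form that was dim in all 12 colons and well above background on only 5 livers. Its Cy3 bound of 1.08-fold is therefore not firm, and its other probe gave a difference of 0.19. The 5 genes that were not called were Cyp2b19, Cyp2j6, Cyp2j9, Cyp4f14 and Cyp4x1, and Cyp2b19 and Cyp4x1 were dim in both tissues.

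**Figure D1:**
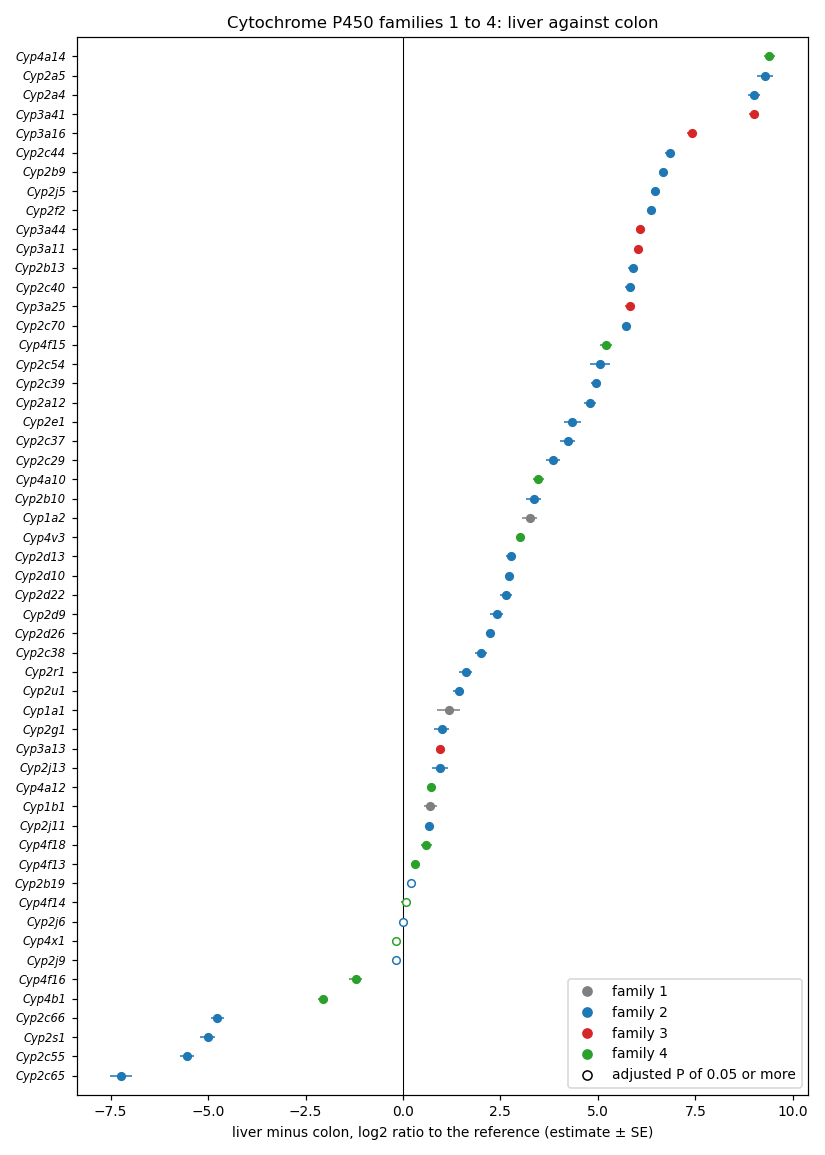
Liver minus colon difference of the log2 ratio to the reference pool (horizontal axis, limma estimate with its SE, 12 livers against 12 colons) for the 54 genes, ordered by the difference and coloured by family. Most estimates lie right of 0, up to 9.40 for Cyp4a14, and 6 genes lie left of 0 with adjusted P under 0.05, down to -7.24 for Cyp2c65.

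In family 1, Cyp1a2, which oxidises caffeine and aromatic amines, was read on all 12 livers and on 8 of 12 colons. Its log2 ratios ran from -0.40 to 1.37 in liver with a median of 0.65, and from -3.57 to -1.35 in colon with a median of -2.74. Every liver lay above every colon, a difference of 3.25 (SE 0.20, limma adjusted P of 1.24e-13). Both probes of Cyp1a2 gave the same difference, at 3.24 and 3.25.

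Subfamily Cyp2a held some of the widest differences of the 54 genes. Cyp2a5, which hydroxylates coumarin and nicotine, ran from 4.21 to 5.74 in liver (median 4.81) and from -5.68 to -2.87 in colon (median -4.47). The difference was 9.30 (SE 0.21, adjusted P of 2.49e-23 in limma), but only 1 colon was well above background, and the other probe of Cyp2a5 gave 7.82. Cyp2a4, a testosterone hydroxylase that is female-predominant in liver, differed by 9.00 (SE 0.16), with 2 of 12 colons well above background. Its other probe gave 5.37, so the size of the difference depends on the probe. Cyp2a12 was dim in all 12 colons, and its ratios differed by 4.79. For genes dim in all colons a bound was also set in the Cy3 channel alone, the liver mean against the dimmest colon signal that was well above background, or the probe's own signal where that was higher. By that bound Cyp2a12 was at least 108-fold higher in liver in Cy3, on another scale than the ratio, and the Cy5 signal at its probe also differed between the tissues, as given below.

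Subfamily Cyp2b is the classical target of the receptor CAR, which phenobarbital activates. Cyp2b10, its best known target gene, ran from 0.79 to 2.68 in liver (median 1.39) and was dim in all 12 colons. Its ratios differed by 3.35, and in Cy3 it was at least 7.47-fold higher in liver. Cyp2b9 and Cyp2b13, both female-predominant, differed more at their main probes. Cyp2b9 lay between 3.27 and 4.06 in liver and between -3.60 and -2.72 in colon, a difference of 6.68 (SE 0.10), with 5 of 12 colons well above background. Cyp2b13, read by the first probe printed above, lay between 2.78 and 3.57 in liver and was dim in all 12 colons. Its ratios differed by 5.90, and in Cy3 it was at least 69.8-fold higher in liver, the Cy5 signal again differing between the tissues. The main probes of both genes list another Cyp2b transcript, so these are values of a group of copies. The other probes, which list no other gene, gave smaller differences, 3.997 for Cyp2b9 and 4.60 for Cyp2b13.

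Subfamily Cyp2c, with 11 genes, held large differences in both directions, with 8 genes higher in liver and 3 in colon. Cyp2c44, an arachidonic acid epoxygenase whose current name is Cyp2c23, ran from 2.87 to 3.80 in liver (median 3.23) and from -4.02 to -2.88 in colon (median -3.58). The difference was 6.85 (SE 0.12, adjusted P of 2.34e-25 in limma), with only 1 colon well above background. Cyp2c40, a female-predominant eicosanoid hydroxylase whose probe also lists Cyp2c67 and Cyp2c68, differed by 5.82 (SE 0.12) and was read on all 24 arrays. Its other probe, which lists Cyp2c68 and was also read on all 24 arrays, gave 3.24 (SE 0.22). Cyp2c29, Cyp2c37, Cyp2c39, Cyp2c54 and Cyp2c70 were higher in liver by 3.84 to 5.73. Cyp2c38 was dim in all colons and at least 2.34-fold higher in liver in Cy3.

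The other 3 genes of the subfamily went the opposite way in every mouse. Cyp2c65, an intestinal form that oxidises arachidonic and linoleic acid, ran from 2.66 to 3.37 in colon (median 3.13) and from -5.47 to -2.26 in liver (median -4.46). It was the P450 gene of these families with the widest colon difference, -7.24 (SE 0.28, adjusted P of 6.12e-18 in limma), and 1 liver was well above background. Cyp2c55, which responds to CAR and PXR agonists, ran from 2.47 to 3.16 in colon and from -3.33 to -1.36 in liver. Its difference was -5.55 (SE 0.18, 46.7-fold), with 7 livers well above background. Cyp2c66 ran from 2.31 to 2.91 in colon and from -2.91 to -0.88 in liver, a difference of -4.76 (SE 0.17), with 5 livers well above background. In colon each of the 3 genes spread over less than 1 log2 unit, whereas the livers spread more widely. The 3 livers with the highest values of all 3 genes were HF-low-low 6 and HF-low-suf 4 and 5. In those livers the mean of the colon epithelium list was also highest, at -2.78, -2.64 and -2.93, against -3.22 or lower in the other 9. The small intestine list was highest there as well (-0.58, -0.71 and -0.68, against -1.12 or lower), and so was the pancreas list (-1.86 or higher, against -2.50 or lower). Of those lists, Fabp6, Alpi and Ela1 were themselves higher in colon. HF-low-suf liver 4 also had a bright reference channel, with a median Cy5 signal of 12.7 times background against 5.41 to 7.54 in the other livers, and 59.6% of its probes were well above background against 26.1% to 46.8%. The same 3 livers were highest for Cyp1a1, dim on all arrays (-0.64, -0.58 and -1.02, against -1.61 or lower). They were lowest for Cyp2r1 (0.39, 0.66 and 0.98, against 1.17 or higher) and for Cyp2u1 (0.13, 0.12 and 0.37, against 0.50 or higher). The part of the lists, of the bright Cy5 and of this pattern in the liver values was not tested. Without these 3 livers the differences were -7.79, -5.88 and -5.07 for Cyp2c65, Cyp2c55 and Cyp2c66.

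The 5 genes of subfamily Cyp2d, the mouse counterparts of the human debrisoquine hydroxylase, were close to each other at their main probes. All were higher in liver, and these differences lay between 2.22 and 2.78, with a median of 2.64 (SD over mice 0.41). Cyp2d9, a male-predominant steroid hydroxylase, ran from 0.45 to 2.13 in liver and from -1.94 to -0.21 in colon, and its overlapping probes gave 2.40 and 2.43. Other probes spread further, to 3.79 for Cyp2d10 and to 1.67 and 1.37 for Cyp2d22. In these female mice it was read in every liver and every colon, with the limit that its probes also list Cyp2d22.

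The single-gene subfamilies of family 2 differed among themselves. Cyp2f2, known for the activation of naphthalene in airway cells, was read on all 24 arrays and differed by 6.35 (SE 0.10, 81.8-fold), from 1.15 to 1.80 in liver and from -5.34 to -4.46 in colon. Cyp2e1, which oxidises ethanol and acetone, differed by 4.35 (SE 0.22, 20.4-fold), from 0.78 to 2.50 in liver and from -3.58 to -1.59 in colon. Cyp2r1, a vitamin D hydroxylase, and Cyp2u1, a fatty acid hydroxylase, were higher in liver by 1.61 and 1.43 and were read in 2 and 1 of 12 colons. Cyp2s1, an epithelial form that acts on retinoids, was the fourth gene of family 2 that was higher in colon. It ran from 1.30 to 1.98 in colon (median 1.72) and from -4.31 to -2.05 in liver (median -3.37), a difference of -5.01 (SE 0.20, 32.3-fold, adjusted P of 1.28e-17 in limma). At this probe 7 livers were well above background. The second probe of Cyp2s1 gave 0.04 and was well above background on fewer than 6 arrays in each tissue. The 3 highest livers of Cyp2s1 at its main probe were the same 3 as for the colon genes of Cyp2c.

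Within subfamily Cyp2j, whose enzymes make arachidonic acid epoxides, 1 gene stood apart. Cyp2j5 ran from -0.57 to 0.44 in liver and from -6.92 to -5.86 in colon, a difference of 6.48 (SE 0.12), but only 3 of 12 colons were well above background. Its other probe, read on all 24 arrays, gave 4.60. Cyp2j11 and Cyp2j13 were higher in liver by 0.65 and 0.94, with overlapping groups. Cyp2j6 ran from -0.34 to 0.58 in liver and from -0.33 to 0.63 in colon, the closest match between the tissues among genes read on all 24 arrays (difference -0.0059, SE 0.10, adjusted P of 0.98 in limma). Cyp2j9 differed by -0.19 (SE 0.10, adjusted P of 0.173 in limma). With median centring in place of loess, both Cyp2j6 and Cyp2j9 were called higher in colon, by -0.41 and -0.43. Without HF-low-low mouse 3, Cyp2j9 was called at -0.28.

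All 6 genes of subfamily Cyp3a, the main drug-oxidising group and a target of the receptor PXR, were higher in liver. Cyp3a41, female-predominant, ran from 1.82 to 2.65 in liver (median 2.36) and from -7.22 to -6.32 in colon (median -6.73). The difference was 9.00 (SE 0.11, 510-fold, adjusted P of 1.44e-28 in limma), and the values of each tissue spread over less than 1 log2 unit. Cyp3a16 differed by 7.41 (SE 0.11, 170-fold), from 2.05 to 3.00 in liver and from -5.36 to -4.42 in colon. Cyp3a44, also female-predominant, differed by 6.08 (SE 0.08, 67.7-fold) at its main probe and by 1.69 at the other. Cyp3a11, the best known PXR target and read by the second probe printed above, ran from 1.35 to 2.10 in liver and from -4.39 to -3.93 in colon, a difference of 6.03 (SE 0.09, 65.3-fold). Cyp3a13 was the exception in size. It ran from 1.63 to 2.22 in liver and from 0.61 to 1.13 in colon, so that the tissues did not overlap but differed by 0.95 (SE 0.08, 1.94-fold, adjusted P of 5.64e-11 in limma).

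In family 4, both PPAR alpha targets on the array were higher in liver. Cyp4a14 ran from 5.08 to 6.33 in liver (median 5.48) and from -4.21 to -2.84 in colon (median -4.01). The difference was 9.40 (SE 0.15, adjusted P of 1.55e-26 in limma), the largest estimate of the 54 genes in this normalization, with only 2 colons well above background. With the Feature Extraction processed signals it was 10.83, below the 11.15 of Cyp2a5. Cyp4a10 ran from 1.66 to 2.97 in liver and from -2.11 to -0.78 in colon, a difference of 3.47 (SE 0.15, 11.1-fold). The main probe of Cyp4a10, printed above, gave the smallest of its 3 values, the largest being 5.43. Cyp4a12, a male-predominant arachidonic acid hydroxylase, differed by 0.72 at the main probe and by 5.77 at the other, so that its size is not settled by these arrays.

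Cyp4b1, which activates furan-containing toxins and is best known from lung, was the fifth gene higher in colon. It ran from -2.55 to -1.38 in colon (median -1.68) and from -4.29 to -3.31 in liver (median -3.81) and was read on all 24 arrays, a difference of -2.06 (SE 0.12, 4.18-fold, adjusted P of 5.08e-14 in limma). Subfamily Cyp4f, whose enzymes inactivate leukotrienes, spread in both directions. Cyp4f15 was higher in liver by 5.21 (SE 0.15), Cyp4f13 and Cyp4f18 by 0.30 and 0.60. In the Cy3 channel alone Cyp4f13 was not called after quantile normalisation (difference 0.31, adjusted P of 0.0622 in limma), and with each array centred on its median the Cy3 difference was 0.027. Cyp4f14 ran from -0.11 to 1.03 in liver and from -0.03 to 0.61 in colon, a difference of 0.07 (SE 0.11, adjusted P of 0.683 in limma) that turned to -0.30 in the Cy3 channel alone, where it was called higher in colon (adjusted P of 0.0415 in limma). Cyp4f16 was the last gene higher in colon, from -0.42 to 0.72 in colon and from -1.79 to -0.43 in liver, a difference of -1.22 (SE 0.16, 2.32-fold, adjusted P of 2.82e-07 in limma). Cyp4v3, a fatty acid hydroxylase, was higher in liver by 3.00 (SE 0.09, 8.02-fold).

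**Figure D2:**
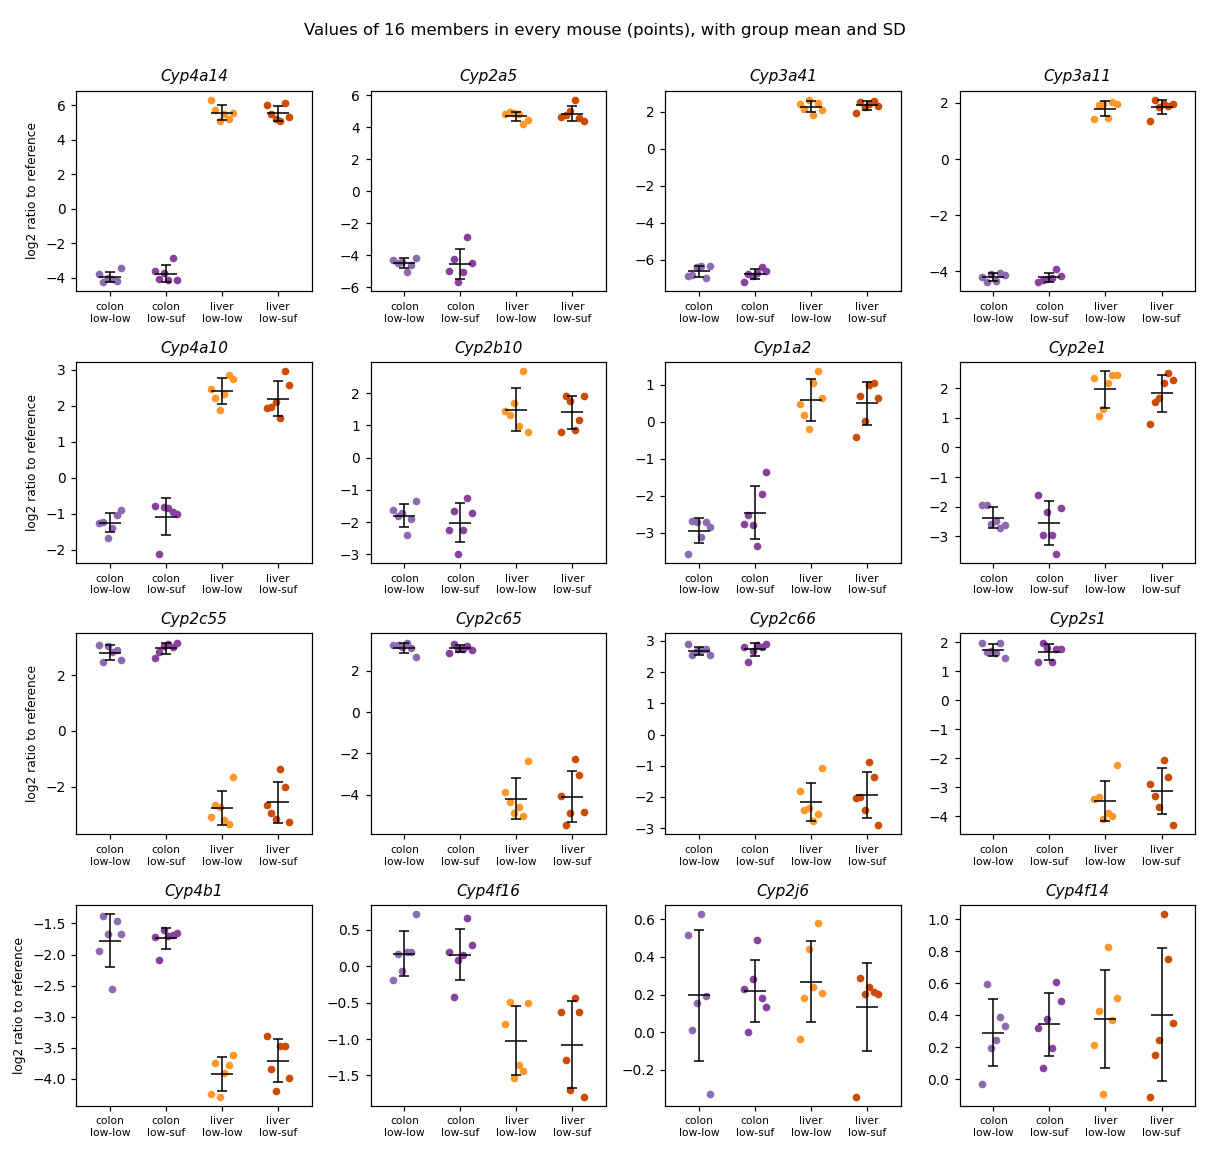
Log2 ratio to the reference pool (vertical axis) in each of the 24 samples for 16 of the genes, with 6 mice in each of the 4 groups of tissue and diet. The tissues separate for most genes, up in liver for Cyp4a14 and up in colon for Cyp2c65, while within a tissue the mice of both diets overlap.

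The reference pool was the same on every array, so its Cy5 signal should not depend on the tissue in the other channel. At 4 of the 54 genes it was nonetheless over 1 log2 unit higher on liver than on colon arrays. This was more frequent than over all probes, where it held at 51 of 41174 (0.124%). At 10 of the 54 genes the Cy5 signal differed by over 0.5 log2 units between the tissues. At the probe of Cyp2a12 the median Cy5 signal was 10550 on liver arrays and 1614 on colon arrays, a difference of 2.91 after normalization. The Cy5 difference was 1.60 for Cyp4a14, 1.08 for Cyp2b13 and 1.04 for Cyp2b9. It went the other way at Cyp2c55, -0.81, and Cyp2c66, -0.48. In each of these 6 genes the reference signal moved with the sample, so that the ratio gave a smaller tissue difference than Cy3 alone. In Cy3 alone, with each array centred on its median, liver exceeded colon by 10.94 for Cyp4a14 and by 7.20 for Cyp2a12. For Cyp2c55 the difference was -7.09. After quantile normalisation of Cy3 the differences of the same genes were 10.33, 6.99 and -6.70. The cause was not tested. The directions of the genes named here were the same in Cy3 alone.

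**Figure D3:**
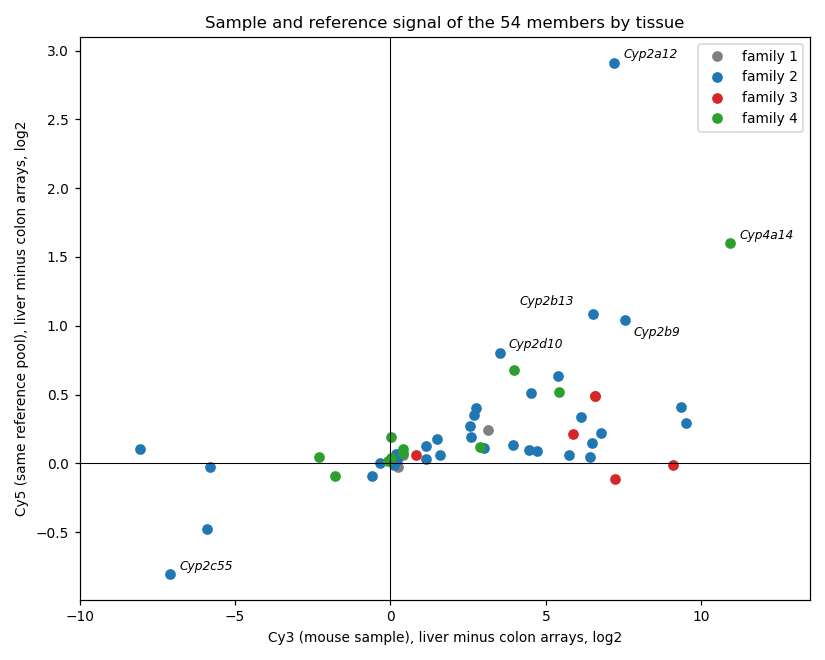
Liver minus colon difference of the normalized Cy3 signal, which is the mouse sample (horizontal axis, log2), against that of the Cy5 signal, which is the common pool (vertical axis, log2), for the 54 genes. Most genes lie near 0 on the vertical axis, and Cyp2a12 at 2.91 and Cyp4a14 at 1.60 lie highest.

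The genes sit in tandem, and tissue direction followed position in some clusters. With neighbours joined when less than 1 Mb apart in mm7, 7 clusters held 3 or more of the genes. The 5 Cyp3a genes on chromosome 5 (144465045 to 144867516) and the 5 Cyp2d genes on chromosome 15 (82458342 to 82874601) were all higher in liver. The 10 Cyp2c genes on chromosome 19 (38807081 to 40047312) began with Cyp2c55, Cyp2c65 and Cyp2c66, which were higher in colon, and the next 7 were all higher in liver. In the cluster of 10 genes on chromosome 7 (22576517 to 24052469) Cyp2s1 came first, followed by the Cyp2b and Cyp2a genes. Cyp4b1 was the last of 5 genes on chromosome 4 (114482828 to 115001420) and Cyp4f16 the first of 4 on chromosome 17 (30749685 to 31128047). The genes higher in colon thus lay at an end of their cluster, singly or, for Cyp2c, as a block of 3. This is a description of 4 clusters seen after their values, with no test.

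**Figure D4:**
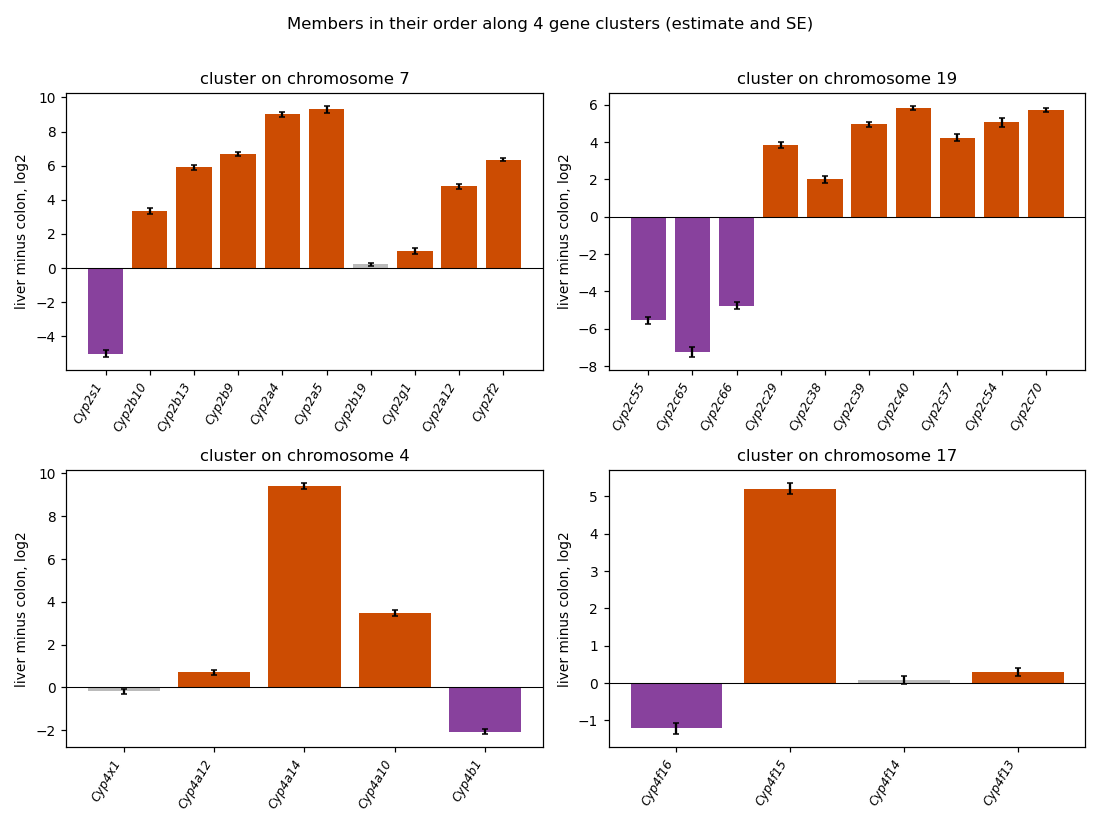
Liver minus colon difference (vertical axis, log2, bars from 0 with SE) of the genes in chromosomal order in the 4 clusters that hold a gene higher in colon. The bars below 0 with adjusted P under 0.05 stand at 1 end of each cluster: 3 on chromosome 19 and 1 each on chromosomes 7, 4 and 17.

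Promoters could be compared for 44 of the 54 genes, from RefSeq sequences of build GRCm38.p6, in the 250 bases before each start. Of 946 pairs of these promoters, 8 shared a run of 25 bases or more. Both genes of each of the 8 pairs went the same way between the tissues, as did 576 of all 946 pairs (60.9%). Part of this agreement is fixed by the probes, since those of Cyp2b13 with Cyp2b9 and of Cyp2a4 with Cyp2a5 are not separate. Cyp3a genes also recur among the 8 pairs. The pairs are therefore not independent, and the counts cannot be weighed against each other. The longest runs were 146 bases in Cyp2b13 and Cyp2b9, and 111 bases in Cyp2a4 and Cyp2a5. Only 1 of the 8 pairs was higher in colon, Cyp2c65 with Cyp2c66. Their 120 bases before the start (chromosome 19, plus strand, 39060886 to 39061005 and 39113778 to 39113897) are shown with the common 48 bases in capitals.
Cyp2c65 promoter: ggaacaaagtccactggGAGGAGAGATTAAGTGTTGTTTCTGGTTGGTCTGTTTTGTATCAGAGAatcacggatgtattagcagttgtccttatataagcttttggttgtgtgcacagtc
Cyp2c66 promoter: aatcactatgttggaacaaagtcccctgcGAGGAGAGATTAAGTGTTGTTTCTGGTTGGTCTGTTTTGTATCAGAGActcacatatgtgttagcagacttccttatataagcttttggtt
Words chosen with these promoters in view were searched for on both strands. A gene was counted if any of its listed promoters held the word. The shares over all promoters count single promoters, so the shares are in unlike units. The TATA box letters TATAAA were in promoters of 20 of the 44 genes (45.5%), and in 12.4% of 32851 single promoters. These letters stood in promoters of 17 of the 34 genes higher in liver and of 3 of the 6 genes higher in colon. The letters CAAAGTCCA, part of the element bound by the liver and gut factor HNF4, were in promoters of 6 genes (13.6%, and 0.384% of single promoters). These were Cyp2c40, Cyp2c70, Cyp3a11, Cyp3a16 and Cyp3a41, higher in liver, and Cyp2c65, higher in colon, where they began 116 bases before the start. The word was thus in promoters of both directions. It is in capitals in 3 of the liver promoters, the 120 bases before the start of Cyp2c40 (chromosome 19, minus strand, 39812815 to 39812934), Cyp2c70 (chromosome 19, minus strand, 40187287 to 40187406) and Cyp3a11 (chromosome 5, minus strand, 145879855 to 145879974).
Cyp2c40 promoter: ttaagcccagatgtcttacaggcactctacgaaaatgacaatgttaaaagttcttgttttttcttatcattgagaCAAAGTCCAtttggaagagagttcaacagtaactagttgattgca
Cyp2c70 promoter: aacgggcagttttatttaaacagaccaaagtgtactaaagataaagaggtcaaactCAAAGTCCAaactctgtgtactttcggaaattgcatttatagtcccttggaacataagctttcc
Cyp3a11 promoter: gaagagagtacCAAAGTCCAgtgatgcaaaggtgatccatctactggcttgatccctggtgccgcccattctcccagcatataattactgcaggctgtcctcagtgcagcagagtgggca
GTTAAT, which lies in the element of the factor HNF1, was in promoters of 5 genes (11.4%, and 6.43% of single promoters). GCGTG, the core of the Ah receptor element, was in those of 8 genes (18.2%, and 28.2% of single promoters). These are matches of letters, not measured binding.

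Genes that serve these enzymes or switch them were read beside the 19.4% of all probes that were higher in liver. Among 6 genes of electron supply and haem, 5 were higher in liver, among them Por, P450 oxidoreductase, by 1.22, Cyb5 by 2.98 and Alas1, which starts haem synthesis, by 2.50. Of 11 regulators, 8 were higher in liver, with Nr1i3, which encodes CAR, by 2.95 and Ahr by 2.06. Nr1i2, which encodes PXR, differed by 0.20 and was not called (limma adjusted P of 0.316), and Hnf4a differed by 0.44 (adjusted P of 1.69e-05). Both epoxide hydrolase genes, whose enzymes convert the epoxides that P450 enzymes make, were higher in liver, Ephx1 by 2.78 and Ephx2 by 3.94.

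The diet comparison asked whether adequate selenium and folate after weaning changed these transcripts, and no gene of the 54 passed the study's threshold (unadjusted P under 0.01 and a fold change over 1.5) in either tissue. At that threshold 0.117% of all probes passed in liver and 0.168% in colon. No gene of these families had an adjusted P under 0.05 in limma in either tissue, as was true of all probes. At an unadjusted P under 0.05 there were 0 of 54 in liver (2.13% of all probes) and 1 in colon (2.98% of all probes). That gene was Cyp1b1, whose main probe no colon array read above background and whose other probe, read on 1 colon, gave a difference of 0.037 (limma P of 0.791 before adjustment). Differences are given as HF-low-suf minus HF-low-low by the labelled dyes. The study defines its fold changes in the same sense, but by these labels its diet effects took the opposite direction. In liver no probe of the array lay below -0.96, whereas the study lists a larger decrease for Slc2a4. The differences of the P450 genes were positive for 24 of 54 genes in liver and for 29 in colon, with medians of -0.02 and 0.01. With the sign turned, 30 and 25 would be positive. In no gene did the 6 values of one diet lie wholly above those of the other, as at 0.0170% of all probes in liver and 0.0777% in colon.

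Among the genes read on at least 6 livers, the lowest unadjusted P belonged to Cyp4b1, with means of -3.93 ± 0.28 in HF-low-low and -3.71 ± 0.35 in HF-low-suf (SD, 6 mice each). Its difference was 0.22 (limma P of 0.247 before adjustment, exact permutation P of 0.253). Next came Cyp2c38 at -0.24, Cyp4v3 at -0.15, Cyp2j6 at -0.14 and Cyp2s1 at 0.35, with unadjusted P of 0.284 to 0.370. In colon the lowest P among genes read on at least 6 arrays was that of Cyp1a2. Its values averaged -2.94 ± 0.35 in HF-low-low and -2.45 ± 0.71 in HF-low-suf colons, and the highest were HF-low-suf 6 at -1.35 and HF-low-suf 5 at -1.95. The difference was 0.49 (95% interval -0.10 to 1.07, limma P of 0.0955 before adjustment, exact two-sided permutation P of 0.162). It was 0.30 on the first scan day and 0.68 on the other, 0.27 without HF-low-suf colon 6 and 0.67 (unadjusted limma P of 0.0203) without HF-low-suf colon 4, and with median centring in place of loess its unadjusted limma P was 0.0248 at a difference of 0.62. The other probe of Cyp1a2 gave the opposite sign, -0.055 (limma P of 0.787 before adjustment), so the difference was not shared by the probes. Cyp3a13 followed with -0.15 (limma P of 0.242 before adjustment, exact permutation P of 0.0649), and Cyp2c29, Cyp2j9 and Cyp2c55 had differences of 0.23, -0.14 and 0.15. In all of these the diets overlapped.

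The size of change that 6 mice per diet could have missed differed from gene to gene. The 95% interval of the diet difference lay inside a 2-fold change either way for 45 of the 47 genes read in liver and for 34 of the 35 read in colon. A 1.5-fold change either way enclosed it for 35 of all 54 in liver and 38 in colon. For groups of receptor targets in liver, the PPAR alpha targets Cyp4a10 and Cyp4a14 differed by -0.21 and -0.03, and the Ah receptor target Cyp1a2 by -0.09. The CAR and PXR targets Cyp2b10, Cyp3a11 and Cyp2c55 differed by -0.09, 0.06 and 0.21. The 6 female-predominant forms Cyp2a4, Cyp2b9, Cyp2b13, Cyp2c40, Cyp3a41 and Cyp3a44 lay between -0.09 and 0.11, and the male-predominant Cyp2d9 and Cyp4a12 at 0.04 and 0.13. No gene had a diet difference that itself differed between liver and colon at an unadjusted P under 0.05 (6.43% of all probes did), the lowest P being 0.0932 in limma, and none did after adjustment (0 of all probes).

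**Figure D5:**
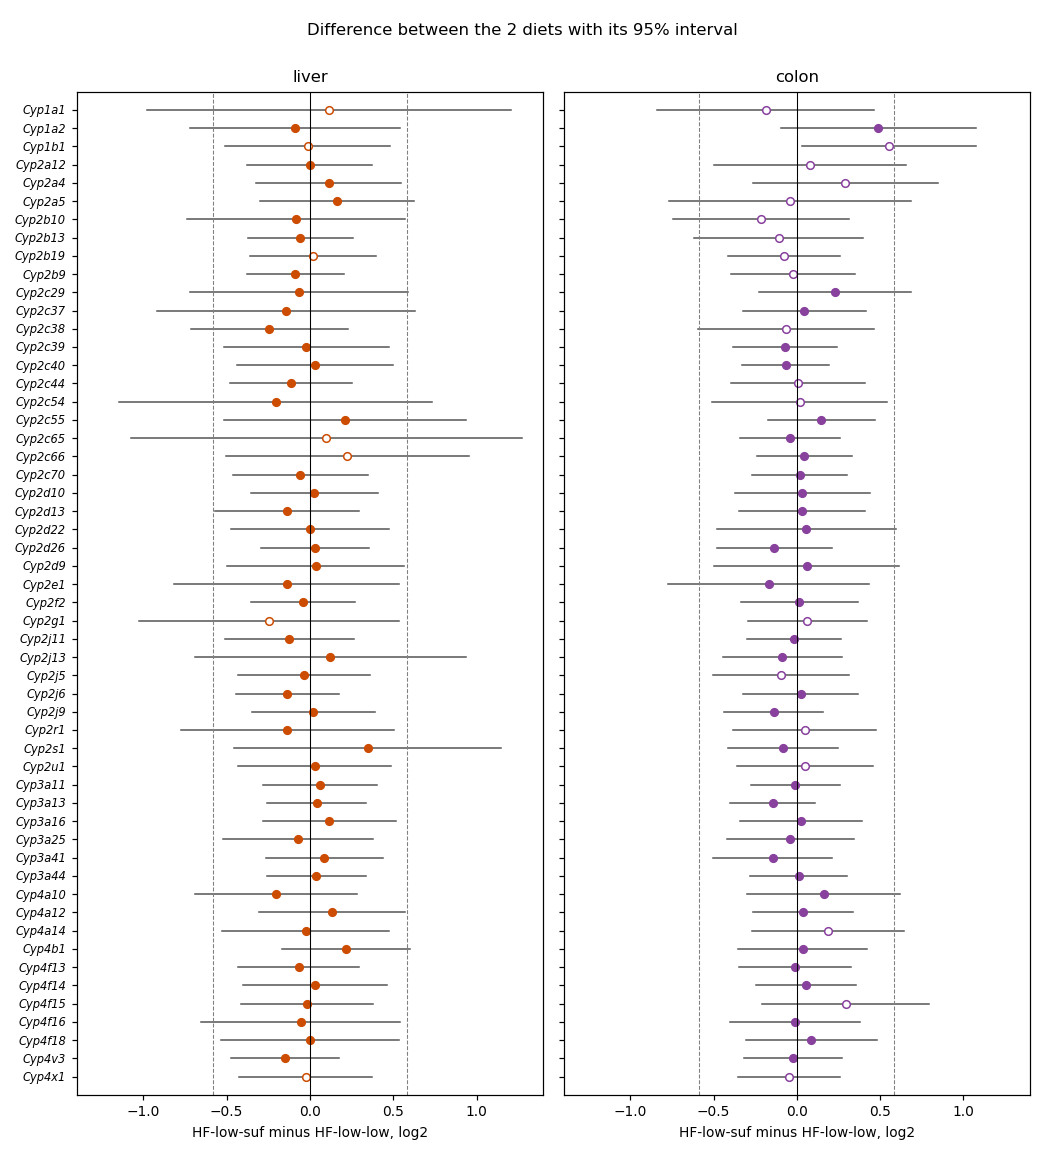
HF-low-suf minus HF-low-low difference of the log2 ratio (horizontal axis, estimate with its 95% interval) for the 54 genes in liver and in colon, with dashed lines at a 1.5-fold change and open points for genes well above background on fewer than 6 of the 12 arrays. The intervals cross 0 in both tissues, except that of Cyp1b1 in colon, an open point.

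Mice of the same diet also differed among themselves. Over the genes read in a tissue, the SD within a diet had a median of 0.37 in liver and 0.27 in colon, and in 25 of the 33 genes read in both it was larger in liver. The largest in liver was that of Cyp2c54 (0.88), with values from 0.29 to 3.18 and a median of 2.59. The low values were those of HF-low-suf liver 1, at 0.29, and HF-low-low liver 2. Those 2 livers were also lowest for Cyp2c37, which lies beside Cyp2c54 on chromosome 19 (0.59 and 1.04, against 2.25 to 2.81 in the other 10), and for Cyp2e1 on the same arrays (0.78 and 1.06, median 2.17). HF-low-suf liver 1 is the liver with an adipose list mean of 2.95, while HF-low-low liver 2 had -1.07, and the part of the adipose list was not tested. Cyp2j13 (SD 0.76), Cyp2s1 (0.74) and Cyp2c55 (0.67) were the other 3 of the 5 most spread in liver, and all were highest in HF-low-low liver 6 and HF-low-suf liver 4.

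In colon the 5 most spread genes were Cyp2e1 (0.58), Cyp1a2 (0.56), Cyp2d9 (0.52), Cyp2d22 (0.50) and Cyp4a10 (0.41). Cyp2d9, Cyp2d22 and Cyp4a10 were all lowest in HF-low-suf colon 2, at -1.94, -1.82 and -2.11. Cyp2e1 in colon ran from -3.58 in HF-low-suf colon 5, the colon with the lowest adipose list (1.42), to -1.59 in HF-low-suf colon 1 (3.11). HF-low-suf colon 5 also stood apart technically, with a median Cy5 signal of 18.1 times background, against 6.08 to 7.49 in the other colons, and with 71.9% of probes well above background. The parts of the adipose list and of the bright Cy5 were not tested. Over all genes read in liver, HF-low-low liver 3 and HF-low-suf liver 1 each gave the lowest value of 20 of 47 genes, and HF-low-suf liver 5 the highest of 20 and the lowest of 0.

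Co-variation over the 12 livers was computed for 3 pairs, each read at the main probes. These were a pair of PPAR alpha targets, a CAR with a PXR target, and a pair of female-predominant forms. None passed the test under the main processing. For Cyp4a10 and Cyp4a14, Pearson's r was 0.35 (permutation P of 0.270, adjusted 0.405) and Spearman's rho 0.47 (permutation P of 0.128, adjusted 0.191). Leaving out the 2 livers with the most extreme Cyp4a10 values gave an r of -0.014, while within the scan days r was 0.65 and 0.64. These values rest on the Cyp4a10 main probe, which cannot be tied to 1 gene, so they do not settle whether the genes co-vary. At another Cyp4a10 probe the highest livers were HF-low-low 1 (3.39) and HF-low-suf 5 (3.33), as for Cyp4a14 (6.33 and 6.13). At the remaining probe the highest was HF-low-low 5 (4.97). For Cyp2b10 and Cyp3a11, r was 0.46 (permutation P of 0.127, adjusted 0.382) and rho 0.55 (permutation P of 0.0707, adjusted 0.191), with r of 0.57 without the 2 most extreme livers and 0.79 and 0.38 within the scan days. This value depended on the processing, with r of 0.58 to 0.77 and an unadjusted P under 0.05 in 6 other settings and r of -0.048 at the other Cyp2b10 probe. For Cyp2b9 and Cyp2b13, whose probes list common transcripts, r was 0.05 (permutation P of 0.875, adjusted 0.875) and rho -0.24 (permutation P of 0.456, adjusted 0.456). The r was -0.57 without the 2 most extreme livers and 0.70 and -0.05 within the scan days.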

How the data were processed

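The deposited files hold, per the file headers, the mean Cy3 and Cy5 intensity of each spot and the median of its local background, as Agilent Feature Extraction 9.5.3.1 quantified them on 24 two-colour arrays. Per the labels, Cy3 held a mouse and Cy5 the pool. Outlier-flagged spots were given no weight and control spots were left out of the tests. Background was corrected by normexp (offset 50) and each array was normalized by loess with limma 3.58.1 in R 4.3.3. Spots of a probe were averaged, which left 41174 probes. Liver was compared with colon in limma on all 24 arrays, the mouse named in the labels being a random block (statmod 1.5.0, correlation of liver and colon of a mouse 0.16) and Benjamini-Hochberg adjustment at 0.05. Diets were compared over the 12 arrays of a tissue with no block. Each slide held 1 array of each group, and slides were scanned on 2 days. A probe was well above background by the flag of Feature Extraction. Where a gene was below it on all arrays of a group, a bound is given, set in Cy3 after loess and Aquantile against the dimmest signal well above background. The number of arrays, not read depth, limits the precision. Of the 54 main probes, 49 matched a RefSeq name of GRCm38.p6, and 3 symbols have changed. Probe coordinates (mm7) were read from the array files.

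The genes and lists were chosen with earlier results of these data known. Named by rule were the 10 genes with the largest difference towards liver, those higher in colon, those not called but read in both tissues, the 5 with the lowest diet P and the 5 with the largest SD within a diet in each tissue, and groups of receptor targets and sex-predominant forms. Cyp1a1 was left out of the pairs, since no liver had it well above background. Others named were chosen after their values were seen. Alternatives were other background corrections, normalizations, probe summaries, filters and blocks, and leaving out each array or mouse. The scripts were tested on simulated data.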

Additional observations from a re-analysis of the deposited data

Results flagged for a closer look

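In 13 of 120 comparisons of a named gene with its group of 6 (10.8%), 1 sample lay farther from the others than Dixon's 95% limit allows, and in all of them the sample was the lowest of its group. Chance flags about 1 in 20 of independent groups, but that is no yardstick here, since 6 of the 13 are genes named for their large SD in that tissue and 9 come from 2 arrays. HF-low-suf liver 1 gave 5 of these, at 2.05 for Cyp3a16, -0.34 for Cyp2j6, 0.29 for Cyp2c54, 0.59 for Cyp2c37 and 1.35 for Cyp3a11. HF-low-suf colon 2 gave 4, at -2.09 for Cyp4b1, -1.94 for Cyp2d9, -1.82 for Cyp2d22 and -2.11 for Cyp4a10. The others were Cyp2b9 in HF-low-suf liver 6 (3.27), Cyp2c65 in HF-low-low colon 6 (2.66), Cyp2c37 in HF-low-low liver 2 (1.04) and Cyp2d9 in HF-low-low liver 3 (0.45).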

How the results depend on the processing

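Over all alternatives, 40 to 43 genes were higher in liver and 6 to 8 in colon, and 42 to 43 and 6 to 7 when a mouse was left out. No gene was called for diet in either tissue under any alternative, nor when an array was left out, and none for a difference of the diet effect between tissues. At an unadjusted P under 0.05 the count in colon was 0 to 2 and in liver 0. Each mouse gave a liver and a colon, and with this pairing as a fixed block the counts were 43 and 6, as with no block. For the diets, samples with the same number share only a slide. With the slide as a block 0 genes were called, 2 in colon had an unadjusted P under 0.05, and the number did not pair the samples (correlations of same-numbered samples -0.46 to 0.69 in liver and -0.37 to 0.47 in colon).

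The Feature Extraction processed signals moved the median of all probes from 0.02 to -0.19, the Cyp2a median to 10.6 and the Cyp2b median to 6.58, and turned the diet difference of Cyp1b1 in colon, which is below background, to -0.051. Median centring in place of loess gave subfamily medians of 4.0 for Cyp2b, 2.23 for Cyp2d, 0.24 for Cyp2j and -0.13 for Cyp4f, the last with its sign turned. Cy3 alone gave 6.36 for Cyp3a and turned Cyp4f14 to -0.30. The mean of all probes gave 7.18 for Cyp2a, 5.73 for Cyp3a and 4.69 for Cyp4a. Leaving out a mouse moved no subfamily median by more than its SD over mice.

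The correlations over livers also depended on the processing. For Cyp2b10 and Cyp3a11 r passed an unadjusted 0.05 at 0.70 with plain subtraction, 0.77 with no background correction, 0.63 with processed signals, 0.71 with median centring, 0.58 in Cy3 alone and 0.77 without the 3 livers of highest colon epithelium list, and was -0.048 with the other Cyp2b10 probe, which Aquantile made the main one. For Cyp4a10 and Cyp4a14 r was 0.65 with median centring, 0.66 in Cy3 alone and -0.015 without those 3 livers, and for Cyp2b9 and Cyp2b13 it was 0.67 with median centring. The causes were not tested. Leaving out those 3 livers, or HF-low-suf livers 1 and 2 from the comparison of tissues, were alternatives chosen after seeing the data, and the counts stayed at 43 and 6. Dim signals in colon limit the fold of the widest liver differences.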
